A study of Mus musculus with 8 samples.

Results

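The immediate early transcription factors described here are 10 genes, taken by symbol from a table of 35896 genes: Fos, Fosb, Jun, Junb, Egr1, Egr2, Egr3, Ier2, Atf3 and Nr4a1. Their RNA was measured in aortic tissue of 11-week-old (at the start of treatment) male C57BL6 mice, in 8 libraries that each held pooled aortic tissue of 2 mice. In the AngII group, angiotensin II was delivered by osmotic minipump at 2.8 mg/kg/day for 2 weeks, and the aorta was taken when the infusion ended. The AngII+2W and AngII+3W groups received the same infusion and were sacrificed 2 or 3 weeks after it had stopped. CTRL mice were untreated littermates of matched age, and the labels do not give the time point at which the mice of each CTRL library were sacrificed. According to the study's methods, the part of each aorta used for sequencing was not the whole vessel, and it was frozen at once in liquid nitrogen. With 2 libraries per group, drawn from different mice, the members could be compared with CTRL at the end of the infusion and after its withdrawal, and set against the difference between the 2 CTRL libraries, which received no AngII.

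Immediate early genes are switched on within minutes of a stimulus, without new protein synthesis, by kinases that act on transcription factors already bound at their promoters. Their own products are mostly transcription factors that switch on a later wave of genes, and their messages are short-lived. In arteries they are known to respond to angiotensin II, stretch and injury, and in any tissue also to dissection and the time between death and freezing. Fos and Fosb form the AP-1 factor as heterodimers with Jun or Junb. Atf3 is a stress-induced relative of these proteins that often represses transcription. Egr1, Egr2 and Egr3 are zinc finger factors, Nr4a1 is an orphan nuclear receptor, and Ier2 encodes a small nuclear protein.

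Library totals ran from 18130441 to 21498200 counts, and all 10 members were among the 17182 genes that passed the filter on low counts and were tested. Member counts in a library ran from 38 for Egr2 in AngII+2W replicate 2 to 5046 for Nr4a1 in CTRL replicate 1. Levels are given as CPM, counts per 1000000 counts after TMM normalization of the library sizes. All 8 smooth muscle markers examined, which define the main cell of the aortic wall, were above 3 counts in every library. AngII+3W replicate 1 stood apart by its skeletal muscle RNA, with 2637 CPM over 8 skeletal muscle markers against 5.53 to 74.3 in the other libraries. Values of AngII+3W are therefore also given without it where that matters. Over 10 cardiac muscle markers it held 6440 CPM, where CTRL replicates 1 and 2 held 5657 and 2511 CPM.

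Nearly all members were lower at the end of the infusion than in CTRL, and 1 of them, Atf3, passed the test. Of the 10 members, 9 had a lower fitted level in AngII, and in 8 of them both AngII libraries lay below both CTRL libraries, a pattern that 24.9% of all genes tested showed. The median log2 fold change of the members was -0.87, beside -0.01 over all genes tested. Atf3 fell 4.42-fold, while 5.10% of all genes passed the same threshold in either direction (edgeR's quasi-likelihood test, false discovery rate (FDR) under 0.05 over all genes). Without the adjustment for the number of genes, 5 members (Fos, Jun, Egr1, Ier2 and Atf3) had a p under 0.05 and were lower, as did 9.29% of all genes. The members vary together from library to library, so that these counts are not 10 independent observations, and in bulk tissue fewer cells of a type and less RNA per cell cannot be told apart.

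**Figure D1:**
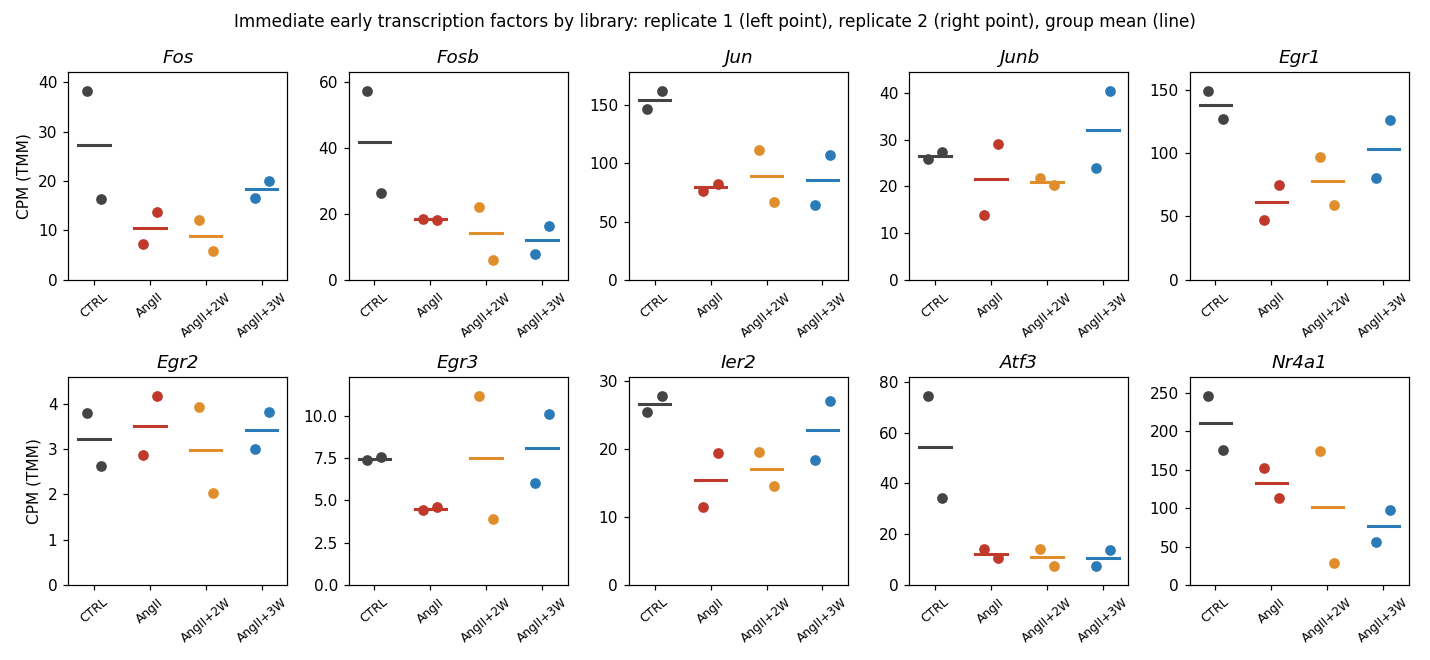
Level of each member in every library (CPM, linear axis from 0), with replicate 1 as the left point, replicate 2 as the right point and the group mean as a line. Atf3 was at 34.2 CPM or more in CTRL and at 14.2 CPM or less in the 6 libraries of mice given AngII, while Fos, Junb, Egr2, Egr3 and Ier2 overlapped CTRL in at least 1 group.

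Atf3, the stress-induced repressor, had the largest difference from CTRL of the 10 members in each treated group. It was at 74.4 and 34.2 CPM in CTRL replicates 1 and 2, at 13.98 and 10.6 CPM in AngII, at 14.2 and 7.41 CPM in AngII+2W, and at 7.58 and 13.6 CPM in AngII+3W. All 6 libraries of treated mice were below both CTRL libraries, and the 3 treated groups overlapped each other. In AngII the log2 fold change was -2.14 ± 0.46 (SE, n = 2 libraries per group; 95% interval -3.22 to -1.07; edgeR FDR = 0.043). In AngII+2W it was -2.32 ± 0.47 and in AngII+3W -2.36 ± 0.47, of like size, but neither passed the test (edgeR FDR = 0.199 and 0.0942). The call in AngII was lost whenever 1 of the 4 libraries compared was left out. Without CTRL replicate 1, which held 2.17 times the level of the other CTRL library, the log2 fold change in AngII was -1.48 (edgeR FDR = 0.191), and without AngII replicate 1, AngII replicate 2 or CTRL replicate 2 the edgeR FDR was 0.153, 0.274 and 0.0524. It was also lost without either AngII+2W library (edgeR FDR = 0.0731 and 0.0725).

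Fos and Fosb, the Fos partners of AP-1, were also lower in AngII and AngII+2W, and differed widely between the 2 CTRL libraries. Fos was at 38.2 and 16.3 CPM in CTRL, 7.29 and 13.8 CPM in AngII, 12.0 and 5.80 CPM for AngII+2W and 16.6 and 20.0 CPM for AngII+3W. Its AngII and AngII+2W libraries lay below both CTRL libraries, while both AngII+3W libraries lay between them. The log2 fold change from CTRL was -1.37 ± 0.49 in AngII (edgeR FDR = 0.170), -1.61 ± 0.50 in AngII+2W (edgeR FDR = 0.313) and -0.57 ± 0.48 in AngII+3W (edgeR FDR = 0.666). Without CTRL replicate 1 the Fos values were -0.63 in AngII and -0.86 in AngII+2W, and the value in AngII+3W turned to 0.17.

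Fosb was at 57.4 and 26.3 CPM in CTRL and at 18.4 and 18.2 CPM in AngII. After withdrawal it was at 22.1 and 6.07 CPM in AngII+2W and at 7.69 and 16.2 CPM in AngII+3W, so that all 6 libraries of treated mice were below both CTRL libraries. The fitted change on the log2 scale was -1.19 ± 0.61 in AngII, -1.56 ± 0.61 for AngII+2W and -1.81 ± 0.62 for AngII+3W, and none passed the test (edgeR FDR = 0.330, 0.417 and 0.293). Without CTRL replicate 1 these values were -0.52, -0.89 and -1.14.

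Jun, the partner that most AP-1 dimers contain, was among the most even members in CTRL, at 146 and 162 CPM. It was at 76.4 and 82.6 CPM in AngII, at 112 and 66.7 CPM in AngII+2W and at 64.6 and 107 CPM in AngII+3W. The highest treated library held less Jun than either CTRL library, and the higher AngII library held 1.08 times the level of the lower one. The difference from CTRL on the log2 scale was -0.96 ± 0.29 in AngII, -0.79 ± 0.29 for AngII+2W and -0.84 ± 0.29 for AngII+3W (edgeR FDR = 0.111, 0.387 and 0.293). Leaving out CTRL replicate 1 moved these values little, to -1.03, -0.85 and -0.92. Jun overlaps the antisense transcript Junos, which was not analysed here.

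Junb, a Jun protein that often restrains growth where Jun promotes it, did not follow the other AP-1 members in AngII and AngII+3W. It was at 25.8 and 27.3 CPM in CTRL, 13.9 and 29.0 CPM in AngII, 21.8 and 20.2 CPM for AngII+2W and 23.8 and 40.5 CPM for AngII+3W. The AngII pair spanned both CTRL libraries, and AngII+3W replicate 2 was the highest of all 8 libraries. In AngII+2W both Junb libraries lay below both CTRL libraries. The log2 fold change from CTRL was -0.30 ± 0.35 in AngII, -0.34 ± 0.35 for AngII+2W and 0.28 ± 0.35 for AngII+3W, with intervals of -1.11 to 0.51, -1.15 to 0.47 and -0.53 to 1.08. Junb shares 176 bases with the transcript of the neighbouring gene Prdx2 on the opposite strand, and whether counting used the strand is not given in the sources used here. Prdx2 was at 75.5 to 102 CPM (without TMM) over the 8 libraries.

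Of the AP-1 members, Fos lies on chromosome 12 (85473890 to 85477273, + strand), Fosb on chromosome 7 (19302696 to 19310051, - strand), Jun on chromosome 4 (95049034 to 95052222, - strand), Junb on chromosome 8 (84974484 to 84978718, - strand) and Atf3 on chromosome 1 (191170296 to 191218039, - strand), all in the GRCm38 annotation. Their transcripts were compared with all annotated mouse transcripts, and apart from the 2 overlapping neighbours, Junos and Prdx2, no other gene shared 100 bases or more at 95% identity with any of the 10 members.

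Members varied together over the libraries, so promoters are shown for Fos, Fosb, Atf3 and Nr4a1, which differed most from CTRL in at least 1 treated group, and for Egr2, whose group means hardly differed. RefSeq (GRCm38.p6) holds promoter windows for 7 of the 10 members, each of 250 bases before and 50 bases after an annotated start. Capitals mark TGACG, the core of the cyclic AMP response element (CRE) that CREB and ATF proteins bind, or CGTCA, its reverse complement. The windows are chr12:85473640-85473939 (+) for Fos, chr7:19309996-19310295 (-) for Fosb, chr1:191183284-191183583 (-) for Atf3, chr15:101266596-101266895 (+) for Nr4a1 and chr10:67537619-67537918 (+) for Egr2, and each is written in the direction of its gene. The Atf3, Nr4a1 and Egr2 windows belong to starts inside the annotated genes.
Fos: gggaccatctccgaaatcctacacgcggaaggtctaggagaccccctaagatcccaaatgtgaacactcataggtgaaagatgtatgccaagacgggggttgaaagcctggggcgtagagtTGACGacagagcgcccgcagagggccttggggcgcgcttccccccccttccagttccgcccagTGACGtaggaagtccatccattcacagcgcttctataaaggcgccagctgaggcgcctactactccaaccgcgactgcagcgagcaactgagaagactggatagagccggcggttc
Fosb: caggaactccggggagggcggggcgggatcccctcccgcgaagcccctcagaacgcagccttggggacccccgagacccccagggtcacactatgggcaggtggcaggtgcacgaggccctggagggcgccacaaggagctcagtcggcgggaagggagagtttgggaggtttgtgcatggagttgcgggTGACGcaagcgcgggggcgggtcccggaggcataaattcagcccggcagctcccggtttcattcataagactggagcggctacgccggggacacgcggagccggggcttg
Atf3: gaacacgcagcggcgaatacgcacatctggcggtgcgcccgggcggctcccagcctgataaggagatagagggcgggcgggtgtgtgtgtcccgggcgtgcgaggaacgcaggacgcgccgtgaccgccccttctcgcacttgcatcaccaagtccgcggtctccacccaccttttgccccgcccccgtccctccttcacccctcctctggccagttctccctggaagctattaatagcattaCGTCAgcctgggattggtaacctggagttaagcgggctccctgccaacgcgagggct
Nr4a1: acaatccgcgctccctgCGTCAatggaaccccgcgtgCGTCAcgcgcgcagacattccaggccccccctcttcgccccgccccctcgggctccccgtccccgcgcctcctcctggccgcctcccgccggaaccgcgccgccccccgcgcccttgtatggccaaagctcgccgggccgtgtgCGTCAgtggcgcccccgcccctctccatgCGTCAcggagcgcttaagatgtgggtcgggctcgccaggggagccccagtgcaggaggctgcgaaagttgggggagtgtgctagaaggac
Egr2: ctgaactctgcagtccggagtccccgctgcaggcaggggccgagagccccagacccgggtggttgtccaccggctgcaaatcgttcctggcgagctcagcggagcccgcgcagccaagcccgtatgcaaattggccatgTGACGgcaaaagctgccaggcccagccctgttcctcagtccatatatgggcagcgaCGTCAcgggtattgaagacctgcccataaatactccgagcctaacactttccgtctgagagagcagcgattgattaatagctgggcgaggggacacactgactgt

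Of the 7 members with a window, 6 held TGACG on either strand, a motif found in 20.8% of the 32807 mouse windows of the same length. Nr4a1 had 4 matches, Fos and Egr2 had 2 each, Fosb, Junb and Atf3 had 1 each, and Jun had none. The Fos matches began 129 and 66 bases before the start, and the one nearer to it lay upstream of a TATAAA match that began 33 bases before the start. The Fosb match began 60 bases before the start and was followed by GCGNGGGCG, the site of Egr proteins, which Nr4a1 also held and which was present in 5.56% of all windows. TATAAA was found in Fos and Junb and in 13.6% of all windows, the CArG box, to which serum response factor binds, only in Egr2 and in 1.63% of all windows, and the full CRE (TGACGTCA) and the AP-1 site (TGANTCA) in no member window, against 1.79% and 7.82% of all windows. TGACG matches include those inside a full CRE. Sites more than 250 bases before a start were not searched, and Egr1, Egr3 and Ier2 have no window. A motif absent here may therefore lie elsewhere in the promoter. Egr2 has 5 annotated starts, of which 3 lie close together and share both TGACG matches and a CArG box. The window printed above is one of these 3. Of the other starts, neither had TGACG and 1 had a CArG box. A match is a description of the letters, and a link between matches and levels was not tested. At the end of the infusion, the members with TGACG included Atf3, Fos and Fosb, with the largest fitted falls from CTRL in AngII. They also included Nr4a1, at -0.67 on the log2 scale in AngII, and Egr2 and Junb, whose AngII libraries overlapped CTRL. Jun, which had a window but no TGACG, was at -0.96 in AngII. Egr1, which has no window, was at -1.18.

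**Figure D2:**
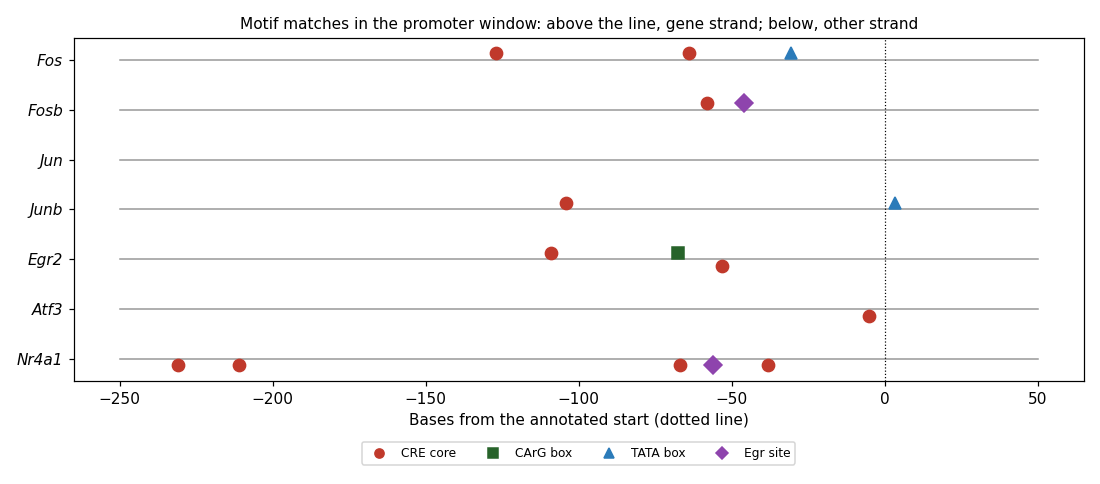
Motif matches along the promoter windows of the 7 members with an entry (horizontal axis, bases from the annotated start, from 250 before to 50 after it), above each line for the strand of the gene and below it for the other strand. Nr4a1 had 4 CRE cores on the other strand, Jun had no match of the motifs drawn, and for Egr2 1 of its 5 starts is drawn.

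Nr4a1, which is known to be induced by cyclic AMP and calcium in smooth muscle, had the highest mean level of the members in CTRL and the widest difference within the AngII+2W pair. It was at 246 and 176 CPM in CTRL and 152 and 113 CPM in AngII. In AngII+2W it was at 175 and 29.1 CPM, a 6.01-fold difference within the pair, and in AngII+3W at 56.2 and 97.2 CPM. All treated libraries were below both CTRL libraries, AngII+2W replicate 1 by the smallest margin. On the log2 scale the difference was -0.67 ± 0.68 in AngII, -1.05 ± 0.69 for AngII+2W and -1.46 ± 0.69 for AngII+3W, and none passed the test (edgeR FDR = 0.657, 0.647 and 0.444). Without AngII+2W replicate 2 the value in AngII+2W was -0.27. Nr4a1 lies on chromosome 15 (101254269 to 101274795, + strand).

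Ier2, a short gene of 1 exon on chromosome 8 (84661331 to 84662852, - strand), was at 25.4 and 27.8 CPM in CTRL. It was at 11.5 and 19.4 CPM in AngII, 19.6 and 14.6 CPM for AngII+2W and 18.4 and 27.1 CPM for AngII+3W. The AngII and AngII+2W libraries were below both CTRL libraries, and AngII+3W replicate 2 lay between them. Its log2 fold change went from -0.78 ± 0.29 in AngII through -0.64 ± 0.29 in AngII+2W to -0.23 ± 0.29 in AngII+3W (edgeR FDR = 0.180, 0.491 and 0.790).

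Egr1, which is known as an early activator of growth factor and tissue factor genes in the vessel wall, was at 149 and 127 CPM in CTRL and at 47.1 and 75.0 CPM in AngII. It was at 96.7 and 59.2 CPM in AngII+2W and at 80.5 and 126 CPM in AngII+3W. The mean of AngII lay furthest below CTRL, AngII+2W replicate 2 lay between the 2 AngII libraries, and AngII+3W replicate 2 came within 1 CPM of the lower CTRL library. The fitted change on the log2 scale was -1.18 ± 0.32 in AngII (95% interval -1.93 to -0.42; edgeR FDR = 0.0845), -0.82 ± 0.32 in AngII+2W (edgeR FDR = 0.414) and -0.42 ± 0.32 in AngII+3W (edgeR FDR = 0.636). In AngII+3W, Egr1 was 0.76 ± 0.32 higher on the log2 scale than in AngII, with non-overlapping pairs and an unadjusted p of 0.048 that did not pass the edgeR test over all genes (edgeR FDR = 0.277).

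Egr2, best known as the master regulator of myelination in Schwann cells, and Egr3, a target of calcium signaling in immune cells, were the members with the lowest levels. Egr2 was at 3.80 and 2.63 CPM in CTRL, 2.86 and 4.17 CPM in AngII, 3.92 and 2.04 CPM for AngII+2W and 3.01 and 3.81 CPM for AngII+3W. No group separated from another for Egr2, and the 95% intervals of its log2 fold changes from CTRL were -0.74 to 1.00, -0.98 to 0.77 and -0.79 to 0.96. It had 38 to 88 counts per library. The summed level of 6 Schwann cell markers was 305 to 397 CPM in CTRL, 117 to 129 CPM in AngII, 226 to 254 CPM in AngII+2W and 201 to 256 CPM in AngII+3W.

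Egr3 was even within CTRL and AngII and uneven after withdrawal. It was at 7.36 and 7.57 CPM in CTRL, 4.43 and 4.60 CPM in AngII, 11.2 and 3.87 CPM for AngII+2W and 6.02 and 10.1 CPM for AngII+3W. Both AngII libraries lay below CTRL, and each withdrawal pair spanned the CTRL pair. The difference from CTRL on the log2 scale was -0.73 ± 0.46 in AngII, 0.01 ± 0.45 for AngII+2W and 0.11 ± 0.45 for AngII+3W (edgeR FDR = 0.441, 0.997 and 0.943). Egr2 lies on chromosome 10 (67535475 to 67542188, + strand) and Egr3 on chromosome 14 (70077203 to 70082614, + strand).

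After withdrawal, the members as a group were again mostly below CTRL, with no call. In AngII+2W, 9 of 10 had a lower fitted level and 8 had both libraries below both CTRL libraries (22.2% of all genes), with a median log2 fold change of -0.81 beside 0.00 over all genes. Of these, 5 were lower with an unadjusted p under 0.05 (6.18% of all genes), and none of the 10 passed the edgeR threshold, as none (0%) of the 17182 genes did in this comparison, although 1838 had an unadjusted p under 0.05. DESeq2 called 373 genes there, among them Atf3 and Fos. In AngII+3W, 7 of 10 were lower, 5 without overlap (18.3% of all genes) and 3 with an unadjusted p under 0.05 (7.18% of all genes), and the median was -0.50 beside 0.03 over all genes. No member was called in AngII+3W by edgeR, where 0.285% of all genes were. DESeq2 called Atf3 in AngII+3W, where it called 3.4% of all genes.

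These counts depended on single libraries. In AngII+3W, without AngII+3W replicate 1, 6 of 10 members were lower, 1 had an unadjusted p under 0.05 and the median log2 fold change was -0.29, and all 3 values were the same without CTRL replicate 1. Without AngII+3W replicate 2, all 10 were lower with a median of -0.80. Without AngII+3W replicate 1 the log2 fold change of Atf3 was -2.00 (edgeR FDR = 0.215), that of Jun -0.53 (edgeR FDR = 0.582) and that of Egr1 -0.13 (edgeR FDR = 0.936). In AngII+2W, without AngII+2W replicate 2, 8 of 10 were lower, 1 had an unadjusted p under 0.05 and the median was -0.46. The number with an unadjusted p under 0.05 in AngII+2W was also 1 without CTRL replicate 1 and 3 without CTRL replicate 2. In AngII the number with an unadjusted p under 0.05 fell without either CTRL library or AngII replicate 1. It rose without AngII replicate 2 or either AngII+2W library. Over these fits 8 to 10 members were lower in AngII and the median lay between -1.10 and -0.69.

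**Figure D3:**
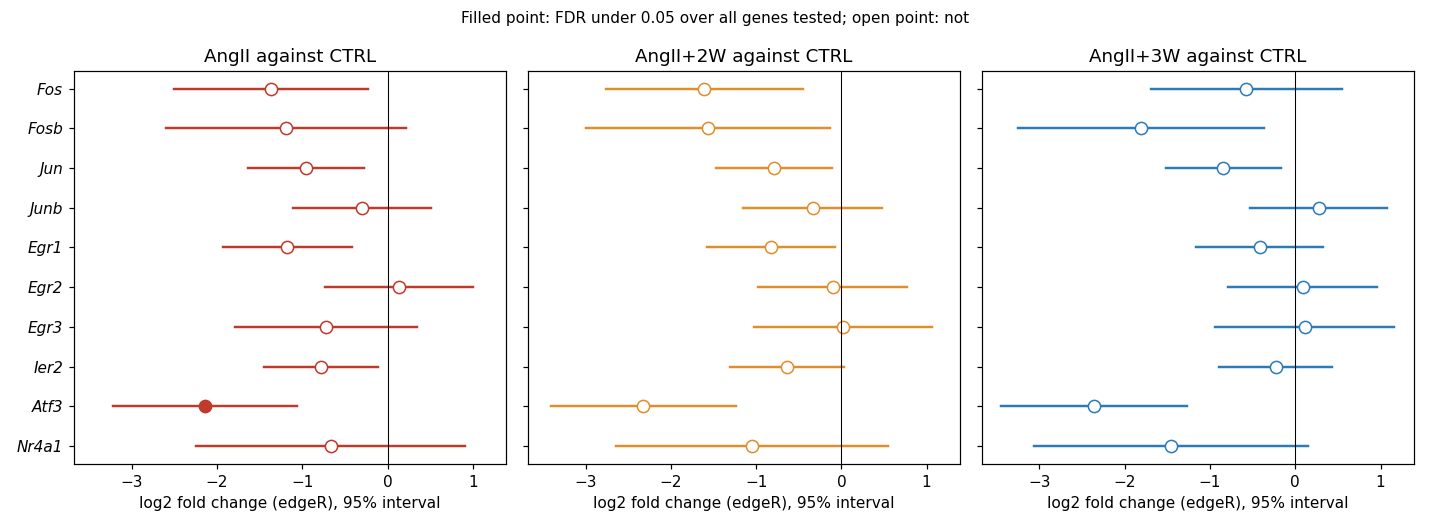
Fitted log2 fold change of each member from CTRL (horizontal axis) with its 95% interval, in AngII, AngII+2W and AngII+3W, 2 libraries per group. Atf3 in AngII is the one filled point, which marks an edgeR FDR under 0.05, and the intervals of Atf3 stay below 0 in all 3 comparisons.

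The treated groups were not separated from each other for any member by the edgeR test. Between AngII+2W and AngII all 10 members overlapped, while 27.5% of all genes were lower and 26.8% higher without overlap. The log2 fold changes of the members ran from -0.38 to 0.74, and 0.163% of all genes were called. Between AngII+3W and AngII, Fos, Egr1 and Egr3 were higher without overlap, as were 24.8% of all genes. Fosb and Nr4a1 were lower without overlap, as were 24.2% of all genes. The log2 fold changes of the members ran from -0.79 to 0.84 there, and 1.61% of all genes were called but no member. Between AngII+3W and AngII+2W, Fos and Junb were higher without overlap, by 1.03 ± 0.50 and 0.61 ± 0.35 (edgeR FDR = 0.594 and 0.662), as were 20.7% of all genes. In that comparison 0% of all genes were called, with 1518 at an unadjusted p under 0.05 and 221 called by DESeq2. DESeq2 called no member in these 3 comparisons either. Egr1 in AngII+3W against AngII was the sole member with an unadjusted edgeR p under 0.05. The 3 comparisons with CTRL share the CTRL libraries, so that their values for a member are not independent of each other.

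The difference within CTRL varied among the members. Fos, Fosb and Atf3 were higher in CTRL replicate 1 by 1.23, 1.12 and 1.12 on the log2 scale, a difference over 1 that 6.05% of all genes showed. Egr2 and Nr4a1 were higher there by 0.51 and 0.48 and Egr1 by 0.23, while Jun, Junb, Egr3 and Ier2 differed by 0.15 or less. The median size of the CTRL difference was 0.36 over the members and 0.28 over all genes. In AngII the median size was 0.48 over the members beside 0.20 over all genes.

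The withdrawal pairs were more uneven, and each in 1 direction. All 10 members were higher in AngII+2W replicate 1 than in replicate 2, beside 49.6% of all genes, with a median difference of 0.92 beside a median size of 0.16 over all genes. The widest were Nr4a1 (2.58), Fosb (1.85) and Egr3 (1.5). All 10 were lower in AngII+3W replicate 1 than in replicate 2, beside 51.6% of genes that were higher there, with a median size of 0.74 beside 0.27. The members' median biological coefficient of variation in the fit was 0.29 beside 0.17 over all genes, and for 10 of 10 it lay above the trend for genes of the same abundance.

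**Figure D4:**
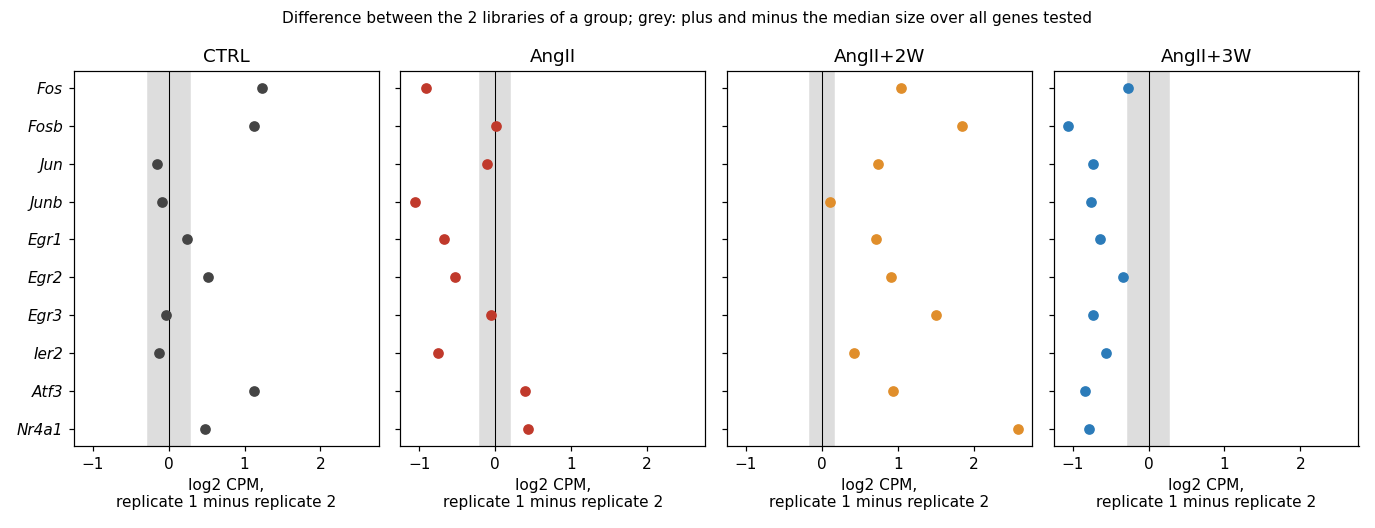
Difference in log2 CPM between replicate 1 and replicate 2 of each group (horizontal axis) for the 10 members, with plus and minus the median size over all genes tested in grey. All 10 points are above 0 in AngII+2W and below 0 in AngII+3W, while in CTRL only Fos, Fosb and Atf3 are above 1.

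Set against these pairs, the mean difference from CTRL in AngII was larger than the difference within the CTRL pair and within the AngII pair for 7 members (Fos, Jun, Egr1, Egr3, Ier2, Atf3 and Nr4a1), as it was for 37.1% of all genes. The same held for 6 members in AngII+2W (Fos, Jun, Junb, Egr1, Ier2 and Atf3; 30.9% of all genes). In AngII+3W it held for 4 (Fosb, Jun, Atf3 and Nr4a1; 25.6% of all genes). Jun and Atf3 were the members for which it held in all 3 groups. Permuting 4 libraries exactly cannot reach a p under 0.33, two-sided, and was not done.

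Summed over the members, the level was 774 and 608 CPM in CTRL, 348 and 371 CPM in AngII, 488 and 215 CPM for AngII+2W and 284 and 462 CPM for AngII+3W. CTRL replicate 1 held the highest level of 5 members and AngII+2W replicate 2 the lowest level of 6. Relative to the CTRL mean, the median member was at -1.04 and -0.86 in AngII, -0.45 and -1.21 for AngII+2W and -0.68 and -0.22 for AngII+3W on the log2 scale.

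**Figure D5:**
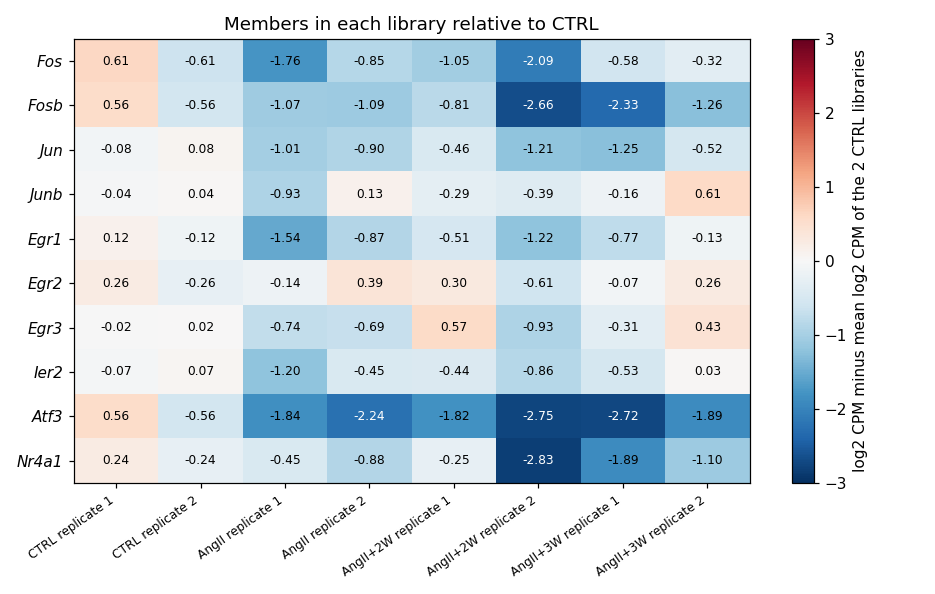
Log2 CPM of each member in each library minus the mean of the 2 CTRL libraries (colour and printed values). In AngII+2W replicate 2 all 10 members were below both CTRL libraries, from -0.39 for Junb to -2.83 for Nr4a1.

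Over the 8 libraries the members fell into partly separate patterns. Pearson's r of log2 CPM was 0.96 for Egr1 and Ier2, 0.94 for Fosb and Nr4a1 and 0.92 for Fosb and Atf3, and as low as 0.05 for Junb and Nr4a1, with a median of 0.62 over the 45 pairs. The libraries are shared by all members and include the difference between groups, so these are descriptions with no test. Egr1 and Ier2 were thus nearest to CTRL in AngII+3W, while Fosb, Nr4a1 and Atf3 had their lowest group means there. The 10 genes outside the list whose log2 CPM followed the members' mean scaled level most closely (r from 0.92 to 0.96 over 8 libraries) were Olfr15, Msx1, Trim58, Nsrp1, Rfx2, Gm21093, Rassf1, Olfr466, Apod and Gm49601, none of which was called in a comparison with CTRL.

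Levels of different members can be compared per length, as CPM per kb of all annotated exons of a gene merged. This length can exceed that of any single transcript, and the order depends on it. In CTRL the order was Nr4a1 (60.1 ± 14.05 CPM per kb; SD, n = 2), Jun (48.4 ± 3.56), Egr1 (30.8 ± 3.53), Atf3 (25.2 ± 13.2), Ier2 (17.5 ± 1.12), Fos (11.6 ± 6.61), Junb (11.5 ± 0.48), Fosb (6.71 ± 3.52), Egr3 (1.69 ± 0.03) and Egr2 (0.95 ± 0.24). Among neighbours in this order, the CTRL libraries of Nr4a1 and Jun, Egr1 and Atf3, Atf3 and Ier2, and Fos and Junb overlapped, and those of the other neighbours did not. Atf3 stood at 5.71 ± 1.11 CPM per kb in AngII, 5.02 ± 2.24 for AngII+2W and 4.91 ± 1.97 for AngII+3W. Ier2, at 10.2 ± 3.68, 11.2 ± 2.33 and 14.9 ± 4.04 CPM per kb, thus had a higher mean than Atf3 in every treated group, where it had a lower one in CTRL.

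Among the relatives of these factors, few genes passed the test. Of 16 other AP-1 and ATF family genes, 11 had a lower fitted level in AngII with a median log2 fold change of -0.11, and 1, Mafk, which encodes a small Maf protein that pairs with larger bZIP factors, fell (-1.13 ± 0.23; edgeR FDR = 0.037). Its levels were 54.3 and 48.5 CPM in CTRL and 19.7 and 27.2 CPM in AngII. None of the 16 was called in AngII+2W or AngII+3W, with medians of -0.04 and -0.27. The median over all genes lay between -0.01 and 0.03 in the 3 comparisons. Which genes of this and the following lists were called in AngII+3W depended on single libraries, among them its replicate 1 with the skeletal muscle RNA. The calls in AngII depended on single libraries too. Without CTRL replicate 1, where 29 of all genes were called, 1 heat shock gene was the sole call among all lists, and without AngII replicate 2 no gene of the lists was called. Without AngII replicate 1 the targets of AP-1 or Egr had 6 calls in place of 4, and without CTRL replicate 2 the heat shock genes had 7 in place of 4.

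Other immediate early genes were also mostly lower than in CTRL. Of 28 listed, 27 were tested and Egr4 was at 0 in every library. In AngII 24 of 27 were lower with a median of -0.25, in AngII+2W 23 with a median of -0.43, and in AngII+3W 24 with a median of -0.79. Csrnp1, a nuclear protein induced by Axin, fell in AngII (36.9 and 23.7 CPM in CTRL, 10.9 and 10.9 CPM in AngII; -1.48 ± 0.23; edgeR FDR = 0.017). Gadd45g, a stress sensor that activates p38 and JNK signaling, fell in AngII (-1.19 ± 0.24; edgeR FDR = 0.035) and in AngII+3W (-1.94 ± 0.24; edgeR FDR = 0.046), from 66.4 and 47.1 CPM in CTRL to 26.0 and 23.9 CPM in AngII and 17.6 and 12.0 CPM in AngII+3W. Within pairs, 22 of the 27 were higher in CTRL replicate 1, 21 in AngII+2W replicate 1 and 19 in AngII+3W replicate 2. Of all genes, 51.2% were higher in CTRL replicate 1, 49.6% in AngII+2W replicate 1 and 51.6% in AngII+3W replicate 1.

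Inhibitors and feedback regulators of the pathway were split. In AngII, 10 of 20 were lower and 10 higher, with a median of 0.07, and 3 fell. Dusp8, a phosphatase of JNK and p38, fell (-1.50 ± 0.24; edgeR FDR = 0.018), from 55.7 and 38.8 CPM in CTRL to 16.3 and 17.0 CPM in AngII. Zfp36, which destabilises messages with AU-rich elements, Fos among them, fell from 68.8 and 72.4 CPM to 32.8 and 44.8 CPM (-0.86 ± 0.16; edgeR FDR = 0.029). Btg2, an antiproliferative cofactor, fell from 125 and 87.8 CPM to 42.8 and 51.9 CPM (-1.17 ± 0.23; edgeR FDR = 0.032). In AngII+3W only Dusp8 of this list was called, at 12.1 and 15.8 CPM in replicates 1 and 2 (-1.76 ± 0.24; edgeR FDR = 0.046). In AngII+2W none was called, and the medians of AngII+3W and AngII+2W were -0.13 and -0.23.

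The kinases and transcription factors that act upstream showed 3 calls in AngII out of 26 tested, beside 5.10% of all genes, and none after withdrawal. Their medians were 0.09 in AngII, 0.07 for AngII+2W and 0.04 for AngII+3W. Srf, the serum response factor that binds the CArG box, fell from 50.7 and 48.4 CPM in CTRL to 25.5 and 27.3 CPM in AngII (-0.91 ± 0.15; edgeR FDR = 0.021). Elk3, an Ets factor that pairs with it, rose from 31.4 and 37.0 CPM to 58.0 and 59.9 CPM (0.79 ± 0.16; edgeR FDR = 0.035), and Rps6ka1, a ribosomal S6 kinase downstream of ERK, rose from 4.77 and 7.43 CPM to 11.8 and 14.2 CPM (1.09 ± 0.24; edgeR FDR = 0.044).

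Genes known as targets of AP-1 or Egr proteins did not follow the members at the end of the infusion. Of 19 tested, 12 were higher in AngII with a median of 0.48, and 4 rose while none fell. Timp1, an inhibitor of metalloproteinases, rose from 2.63 and 2.45 CPM in CTRL to 20.8 and 41.4 CPM in AngII (3.61 ± 0.47; edgeR FDR = 0.012). Ccnd1, the cyclin of the G1 phase, rose from 19.1 and 25.0 CPM to 44.9 and 41.5 CPM (0.97 ± 0.17; edgeR FDR = 0.023). Mmp14, a membrane-bound metalloproteinase, rose from 37.5 and 37.6 CPM to 96.4 and 222 CPM (2.09 ± 0.39; edgeR FDR = 0.030), and the fourth was Spp1, osteopontin (edgeR FDR = 0.0497), named after its values were seen. None of the 19 was called in AngII+2W or AngII+3W, where the medians were 0.00 and -0.10.

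Heat shock genes, which encode chaperones induced by protein damage, were lower in AngII and after it. Of 13 tested, 11 were lower in AngII with a median of -0.76 and 4 fell, all 13 were lower in AngII+2W with a median of -0.74 and none was called, and all 13 were lower in AngII+3W with a median of -1.20 and 2 fell. Hspb1, a small heat shock protein of muscle, was at 153 and 146 CPM in CTRL, 54.2 and 48.4 CPM in AngII and 35.9 and 40.4 CPM in AngII+3W (-1.54 ± 0.13 and -1.97 ± 0.14; edgeR FDR = 0.0053 and 0.013). Hspa1b and Hspa1a, near-identical copies of inducible Hsp70 whose counts are uncertain for that reason, fell in AngII (-3.68 ± 0.74 and -3.47 ± 0.71; edgeR FDR = 0.036 and 0.037), and CTRL replicate 1 held 343 and 297 CPM where CTRL replicate 2 held 66.9 and 66.2 CPM. In AngII+3W the second call was Hsph1, a large Hsp70 relative (-1.86 ± 0.26; edgeR FDR = 0.046). Within CTRL, 12 of the 13 heat shock genes were higher in replicate 1, beside 51.2% of all genes. Of the members, 6 were higher there, Fos, Fosb and Atf3 by the most, and 4 were lower.

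Clock genes, whose messages oscillate over the day, also differed. Per2, a repressor of the clock, was at 62.7 and 49.4 CPM in CTRL and 18.3 and 18.8 CPM in AngII (-1.60 ± 0.19; edgeR FDR = 0.0089), and was at 60.9 and 85.0 CPM in AngII+3W. Nr1d1, a nuclear receptor of the clock, fell in AngII (-0.87 ± 0.19; edgeR FDR = 0.047), and Arntl, the clock activator, fell in AngII+3W from 35.7 and 26.3 CPM to 8.12 and 10.1 CPM (-1.77 ± 0.21; edgeR FDR = 0.046). The median over 14 clock genes was -0.73 in AngII, -0.25 for AngII+2W and 0.34 for AngII+3W, with 2, 0 and 1 called.

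Cell type markers moved with the groups too. The summed level of 8 smooth muscle markers was 7795 to 9897 CPM in CTRL, 1855 to 2281 CPM in AngII, 3745 to 4137 CPM in AngII+2W and 1969 to 3460 CPM in AngII+3W. Over 8 fibroblast markers it was 3618 to 5719 CPM in CTRL, 21280 to 34349 CPM in AngII, 7233 to 10032 CPM in AngII+2W and 2773 to 7185 CPM in AngII+3W. Over 8 macrophage markers it was 180 to 260 CPM in CTRL, 537 to 784 CPM in AngII, 247 to 309 CPM in AngII+2W and 152 to 293 CPM in AngII+3W. Cardiac muscle markers (10 genes) summed to 2511 to 5657 CPM in CTRL, 969 to 1522 CPM in AngII, 86.1 to 258 CPM in AngII+2W and 497 to 6440 CPM in AngII+3W, and 6 erythroid markers to 4303 to 4361 CPM, 3027 to 3067 CPM, 981 to 2560 CPM and 788 to 1184 CPM in the same order. No marker of these lists was at 0 in every library. Over the 8 libraries, endothelial markers summed to 1052 to 1379 CPM, lymphocyte markers to 16.2 to 22.4 CPM, neutrophil markers to 8.70 to 23.0 CPM and adipocyte markers to 6294 to 10835 CPM. Of the 84 markers in all lists, 81 were tested, and 8 rose and 8 fell in AngII, none was called in AngII+2W and 4 fell in AngII+3W. The part of these cell types, and of the heat shock and clock genes, in the members' levels was not tested.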

How the data were processed

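RNA of a part of each aorta was sequenced in 8 libraries of pooled tissue, 2 per group, and groups were taken from the labels, which give no batch. The deposited values are expected counts per gene, which the authors estimated with Salmon in the ARMOR workflow against Ensembl transcripts of GRCm38 and summed per gene, and which are whole numbers with no normalization.

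From these, edgeR 4.0.16 in R 4.3.3 was run with filterByExpr, TMM normalization and a quasi-likelihood fit of all 8 libraries with group as the sole term, and p-values were adjusted by Benjamini-Hochberg over 17182 genes at an FDR of 0.05. Standard errors are the log2 fold change over the square root of F. CPM of a library used a prior count of 2 on the log2 scale only. The code was tested on simulated data. Counts of the 2 libraries of a group differed beyond sampling noise (chi-square per degree of freedom 12.5 to 86.8), so none was a duplicate. P-values measure the spread between pools of 2 mice.

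The members and all gene lists were chosen with earlier results of these data known. All 10 members are named. Of each other list, the 3 genes with the smallest p among those called in a comparison with CTRL are named at most, with Spp1 named after its values were seen, and marker lists are given as summed CPM. The 10 genes most like the members' mean scaled level over the libraries are named too. Transcripts were compared with blastn 2.17.0 (lengths and positions from the GRCm38 annotation), and promoters came from RefSeq.

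Alternatives were the size factors of DESeq2 1.42.0, library totals alone, filters of at least 1 count in some library or 10 in every library, DESeq2's own test, the newer quasi-likelihood fit, a fit of the 2 groups compared, the replicate block, a prior count of 0.5 for the CTRL difference, and each library left out.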

Additional observations from a re-analysis of the deposited data

How the results depend on the processing

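The precision is set by the 2 libraries per group, each a pool of 2 mice, and not by depth, since every member had 38 counts or more in every library. The call of Atf3 in AngII passed in 8 of 16 alternatives, with an edgeR FDR of 0.0525 for library totals alone. Single libraries decide much of the result. In place of 877 genes called in AngII, edgeR called 0 without AngII replicate 2 (2280 had an unadjusted p under 0.05), 229 without AngII replicate 1, 29 without CTRL replicate 1 and 351 without CTRL replicate 2. The cause of the changes listed here was not tested.

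Of the 10 members, 1 was called in AngII and none in the other comparisons. With library totals alone the number in AngII was 0 (3.62% of all genes), and with DESeq2 4 (Fos, Jun, Egr1 and Atf3; 9.24% of all genes). With the 2 groups alone in the fit it was 3 (Jun, Egr1 and Atf3; 6.93% of all genes). DESeq2 called 2 members in AngII+2W (Fos and Atf3; 2.17% of all genes) and 1 in AngII+3W (Atf3; 3.4% of all genes). With every gene that had at least 1 count edgeR also called 1 in AngII+3W (Atf3; 0.819% of all genes). When 1 library was left out in turn, 0 to 3 members were called in AngII, 0 to 1 in AngII+2W and 0 to 1 in AngII+3W. The 3 in AngII came without either AngII+3W library. A group left with 1 library was assumed to vary like the other groups. The numbers of all genes called in AngII+3W, 49 here, were 0 in the 2-group fit, 1 with library totals alone, 119 with at least 10 counts required in every library, 200 with every gene that had a count and 585 with DESeq2.

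The replicate numbers are shared between groups, but same-numbered libraries hold different mice. The correlation of their deviations from the group means over all genes tested ran from -0.0445 (CTRL and AngII) to 0.248 (AngII and AngII+3W), so the numbers were not taken as a pairing. With the replicate block no member was called (0 in AngII; Atf3 had an edgeR FDR of 0.0516). Under the block 3 log2 fold changes changed sign, Egr3 in AngII+2W against CTRL to -0.018, Junb in AngII+2W against AngII to 0.047 and Atf3 in AngII+3W against AngII+2W to 0.075. For the lists the replicate block gave 4 clock genes and 2 heat shock genes in AngII, and 0 clock genes, 1 heat shock gene, 0 inhibitors and 0 markers in AngII+3W.

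For the other gene lists the calls changed as follows. With the size factors of DESeq2 in edgeR there was 1 clock gene in AngII. With library totals alone there were 1 clock gene, 1 inhibitor, 0 other AP-1 and ATF genes and 1 upstream gene in AngII, and 0 clock genes, 1 heat shock gene, 0 inhibitors, 0 other immediate early genes and 0 markers in AngII+3W. With every gene that had a count there were 5 clock genes and 5 other immediate early genes in AngII. In AngII+3W that filter gave 4 clock genes, 6 heat shock genes, 2 inhibitors, 2 other AP-1 and ATF genes, 6 other immediate early genes, 1 upstream gene and 9 markers. With at least 10 counts required in every library there were 4 clock genes in AngII, and 3 clock genes, 4 heat shock genes, 2 other immediate early genes and 1 upstream gene in AngII+3W. DESeq2 called 7 clock genes, 8 heat shock genes, 5 inhibitors, 2 other AP-1 and ATF genes and 7 other immediate early genes in AngII. For AngII+2W it called 1 clock gene, 6 heat shock genes, 4 inhibitors, 2 other immediate early genes, 1 upstream gene and 18 markers. For AngII+3W it called 7 clock genes, 9 heat shock genes, 4 inhibitors, 3 other AP-1 and ATF genes, 11 other immediate early genes, 1 upstream gene and 16 markers. The newer quasi-likelihood fit gave 2 clock genes and 2 other immediate early genes in AngII+3W. The fit of the 2 groups alone gave 5 clock genes, 2 other AP-1 and ATF genes and 28 markers in AngII, and 0 clock genes, 0 heat shock genes, 0 inhibitors, 0 other immediate early genes and 0 markers in AngII+3W.

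Leaving out 1 library at a time, the calls in AngII ran over 0 to 6 clock genes, 0 to 6 targets, 0 to 7 heat shock genes, 0 to 4 inhibitors, 0 to 2 other AP-1 and ATF genes, 0 to 5 other immediate early genes, 0 to 3 upstream genes and 0 to 24 markers. In AngII+2W they ran over 0 to 1 clock gene, 0 to 1 heat shock gene, 0 to 1 inhibitor, 0 to 2 other immediate early genes and 0 to 14 markers. In AngII+3W they ran over 0 to 5 clock genes, 0 to 8 heat shock genes, 0 to 2 inhibitors, 0 to 3 other AP-1 and ATF genes, 0 to 7 other immediate early genes, 0 to 1 upstream gene and 0 to 16 markers.

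Some members changed sign when 1 library was left out, given here as the range of the log2 fold change. Against CTRL these were Junb from -0.93 to 0.13 and Egr2 from -0.17 to 0.42 in AngII, and Egr2 from -0.66 to 0.28 and Egr3 from -0.96 to 0.57 in AngII+2W. In AngII+3W they were Fos from -1.07 to 0.17, Junb from -0.21 to 0.60, Egr2 from -0.17 to 0.37, Egr3 from -0.36 to 0.43 and Ier2 from -0.59 to 0.023. Between AngII+2W and AngII all 10 did, namely Fos from -0.87 to 0.30, Fosb from -1.60 to 0.27, Jun from -0.26 to 0.49, Junb from -0.48 to 0.60, Egr1 from -0.051 to 0.73, Egr2 from -0.79 to 0.15, Egr3 from -0.23 to 1.30, Ier2 from -0.20 to 0.57, Atf3 from -0.73 to 0.21 and Nr4a1 from -2.19 to 0.40. Between AngII+3W and AngII they were Jun from -0.35 to 0.44, Egr2 from -0.32 to 0.25 and Atf3 from -0.74 to 0.16. Between AngII+3W and AngII+2W they were Fosb from -0.93 to 0.96, Jun from -0.52 to 0.35, Egr1 from -0.00082 to 0.78, Egr2 from -0.23 to 0.72, Egr3 from -0.49 to 1.04, Atf3 from -0.57 to 0.50 and Nr4a1 from -1.21 to 1.38. The median size of the difference between the 2 CTRL libraries over the members, 0.36, moved by less than the SD of these sizes among the members. It was 0.32 with library totals alone and 0.37 with the size factors of DESeq2.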
